A study of Mus musculus with 13 samples.

Results

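Very long genes are those whose longest listed transcript spans at least 500 kb. They were picked by annotated length alone, and Dlg2, Dlgap2, Mdga2, Ccser1, Opcml and Kcnq5, which reach that length and were known from earlier results to have large differences in H3K27me3, were left out. This left 180 genes of the 18562 genes that appear in at least 1 of 6 ChIP-seq peak lists. Their median length was 715 kb, with a range of 502 to 2271 kb, and 42 were longer than 1000 kb. Ptprd, Dmd, Cntnap2, Lrp1b and Macrod2 were the 5 longest. Just inside the limit lay Dock1 (503 kb), Car10 (502 kb) and Edil3 (502 kb), and just outside it Ank3 (494 kb), Abca13 (492 kb) and Dnm3 (491 kb). The bodies covered 148 Mb of 20 chromosomes, and 11 of the genes were on the X chromosome. Gm21949 and Schip1 share 562 kb of sequence and are not separate loci. Mir1195, Mir669e, Mir669m-1 and Bc1 are short RNAs whose annotated spans reach the limit, and were kept because the choice used only length.

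The libraries came from 4T1, a mouse mammary tumor cell line of BALB/cJ origin. Control cells carried a non-targeting guide RNA (sg-Ctrl), and knockout cells (KO) were CRISPR/Cas9-edited in Nup210 and came from 1 clone, KO-N13. H3K27me3 and H3K4me3 were profiled in sg-Ctrl and KO cells, while NUP210 and NPC, an antibody to nuclear pore complex proteins, were profiled in sg-Ctrl cells only. Each of the 6 conditions had 1 library, so no difference between KO and sg-Ctrl could be tested, and all such values compare those libraries and not the conditions. Intervals on reads cover counting error only. Those on shares and medians treat genes, peaks or regions of the same libraries as separate draws, and none covers differences between libraries.

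Genes of this length consist almost wholly of introns, and many of them encode adhesion molecules, receptors and channels of neurons. Most of these have no known role in mammary epithelium. NUP210 is a membrane-anchored subunit of the nuclear pore. H3K27me3 is the mark that Polycomb repressive complex 2 places over silent genes, often in broad domains, and H3K4me3 marks the start of active or poised genes. The epithelial label was checked on markers, and H3K4me3 peaks stood at the transcription start site (TSS) of all 8 epithelial markers examined, among them Epcam, Cdh1 and Krt8, and of 0 of 8 neuronal and 0 of 5 immune markers. Of 5 fibroblast markers, Col1a1 and Pdgfra had a peak.

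The peaks were called by the authors with SICER, which joins enriched windows into broad islands, and each peak carries its ChIP reads, its IgG reads and a fold over IgG scaled by library size. Very long genes held 2589 of 13204 distinct NUP210 peaks, 2026 of 11234 NPC peaks, 1776 of 9555 H3K27me3 peaks in sg-Ctrl and 1642 of 8874 in KO. These peaks held 1378935 NUP210 reads, 1005053 NPC reads, and 1094883 and 3798500 H3K27me3 reads in sg-Ctrl and KO. The H3K27me3 library of KO was 3.16 times as deep as that of sg-Ctrl, and the H3K4me3 library 1.27 times, as recovered from the deposited folds. Reads were divided by relative library size before KO was compared with sg-Ctrl. Deeper sequencing can lengthen and join called islands, and its part in the lengths below cannot be told apart from that of the knockout. Enrichment over IgG was weak for the pore antibodies. The median fold on very long genes was 1.22 for NUP210 and 1.11 for NPC, and 645 NUP210 peaks (24.9%) and 956 NPC peaks (47.2%) had a false discovery rate (FDR) above 0.05. For H3K27me3 the median fold was 1.98 in sg-Ctrl and 1.85 in KO, below the 2.70 and 2.52 of peaks on other genes.

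The starts of 5 genes around which the results below turn are shown as the RefSeq promoter window of 300 bases, from 250 before to 50 after the start, read 5′ to 3′ on the strand of the gene (GRCm38.p6), with every CG dinucleotide in capitals. Cdk14 (chr5:5380202-5380501, minus strand, 53 CG) and Erc2 (chr14:27622157-27622456, plus strand, 31 CG) carried H3K4me3 and had the lowest and the highest KO to sg-Ctrl ratio among the windows that overlapped the H3K4me3 peak of their gene in sg-Ctrl. In Erc2 that peak began at 27622401, so most of the printed window lay outside it. Ctnnd2 (chr15:30172284-30172583, plus strand, 28 CG) had the greatest gain of H3K27me3 length, Magi2 (chr5:19226796-19227095, plus strand, 29 CG) the greatest loss, and Cntn5 (chr9:10904726-10905025, minus strand, 26 CG) the most NUP210.
Cdk14: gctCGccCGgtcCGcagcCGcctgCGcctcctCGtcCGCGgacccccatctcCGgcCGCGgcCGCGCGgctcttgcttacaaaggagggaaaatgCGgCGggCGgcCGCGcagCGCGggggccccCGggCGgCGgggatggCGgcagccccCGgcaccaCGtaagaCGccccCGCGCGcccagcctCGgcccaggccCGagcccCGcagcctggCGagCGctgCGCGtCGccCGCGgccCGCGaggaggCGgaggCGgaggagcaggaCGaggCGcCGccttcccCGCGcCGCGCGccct
Erc2: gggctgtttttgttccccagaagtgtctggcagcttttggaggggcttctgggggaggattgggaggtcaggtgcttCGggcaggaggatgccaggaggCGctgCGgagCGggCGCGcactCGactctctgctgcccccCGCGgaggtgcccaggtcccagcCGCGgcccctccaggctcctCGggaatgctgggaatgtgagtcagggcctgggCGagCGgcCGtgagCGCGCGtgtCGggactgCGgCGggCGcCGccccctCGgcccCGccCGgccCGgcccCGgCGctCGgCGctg
Ctnnd2: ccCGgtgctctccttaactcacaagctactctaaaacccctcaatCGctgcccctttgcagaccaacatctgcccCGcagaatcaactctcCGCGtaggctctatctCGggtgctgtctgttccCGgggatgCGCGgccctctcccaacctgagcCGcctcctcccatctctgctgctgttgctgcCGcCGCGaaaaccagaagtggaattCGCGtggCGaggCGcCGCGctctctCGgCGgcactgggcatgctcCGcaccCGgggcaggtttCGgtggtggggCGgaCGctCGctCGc
Magi2: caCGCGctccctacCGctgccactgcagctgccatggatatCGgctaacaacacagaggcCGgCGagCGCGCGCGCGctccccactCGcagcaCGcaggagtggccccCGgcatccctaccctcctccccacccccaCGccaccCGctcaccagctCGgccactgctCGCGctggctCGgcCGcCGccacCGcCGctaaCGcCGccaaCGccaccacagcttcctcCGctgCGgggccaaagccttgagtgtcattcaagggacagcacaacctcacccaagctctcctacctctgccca
Cntn5: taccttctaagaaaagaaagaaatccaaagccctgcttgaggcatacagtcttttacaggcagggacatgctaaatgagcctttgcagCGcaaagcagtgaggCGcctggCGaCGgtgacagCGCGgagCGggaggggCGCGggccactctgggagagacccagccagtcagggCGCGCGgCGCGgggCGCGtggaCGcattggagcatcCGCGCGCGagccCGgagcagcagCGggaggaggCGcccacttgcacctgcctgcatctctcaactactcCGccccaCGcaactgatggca

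A window within 100 bp of the listed start was found for 123 of the 180 genes. The 2 letters CG were counted on both strands at once, since the pair reads the same on each. The 23 windows that lay in an H3K4me3 peak had a median of 31 CG, and the 94 windows of genes with no H3K4me3 peak 16, against 7 over all 32851 windows of the table. In a further 6 windows the gene had its H3K4me3 peak outside the window. At least 10 CG were present in 95.7% of the 23 windows, in 68.1% of the 94 and in 43.5% of all windows. Ctnnd2, Magi2 and Cntn5 show that a CG-rich window and a lack of H3K4me3 occurred together. Of the 3, Cntn5 alone had H3K27me3 over its start, and it did in both lists.

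Very long genes were rarely marked as active. An H3K4me3 peak lay within 4 kb of the TSS of 42 of the 180 genes in sg-Ctrl (23.3%, 95% Wilson interval 17.8 to 30.0) and of 45 in KO (25%), where the shares over all listed genes were 67.1% and 67%. The share was 42.3% among the 477 genes of 250 to 500 kb and 62.7% among the 1554 of 100 to 250 kb. A gene enters the lists only by having a peak, and this holds back short genes without one far more than long genes, so the shares over all listed genes are no measure of all genes. Enox1, Tenm2 and Trpm3 had a peak in KO alone, and those peaks held only 123, 50 and 77 reads. No very long gene had one in sg-Ctrl alone. Over all listed genes, 240 had a peak in KO alone (1.93% of those with a KO peak) and 256 in sg-Ctrl alone (2.06% of those with an sg-Ctrl peak).

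The other marks went the opposite way with length. NUP210 peaks were present on 166 of the 180 genes (92.2%, 87.4 to 95.3; 33.9% of all listed genes), on 77.4% of genes of 250 to 500 kb and on 62.2% of genes of 100 to 250 kb. NPC peaks were present on 158 (87.8%, 82.2 to 91.8; 30.8% of all listed genes). H3K27me3 was present on 139 in sg-Ctrl (77.2%, 70.6 to 82.7; 26.8% of all) and on 146 in KO (81.1%, 74.8 to 86.2; 27.5% of all). A longer body has more room for a peak, so the covered share of the body is given as well. Its median over genes can also depend on length. The median covered share was 29.4% for NUP210, against 12.1% at 250 to 500 kb and 9.33% at 100 to 250 kb. For H3K27me3 in sg-Ctrl these medians were 14.8%, 6.80% and 0%. Summed over all bases the difference was smaller, with 34.0% of the length of very long genes in NUP210 peaks against 25.7% and 24.9%, and 22.9% in H3K27me3 peaks against 23.2% and 15.9%. For H3K27me3, very long genes and genes of 250 to 500 kb were thus covered over a like share of their bases, while the medians over genes differed. Within the very long genes, length and covered share were only weakly related (Spearman's correlation 0.10 for NUP210 and 0.14 for H3K27me3 over 180 genes).

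**Figure D1:**
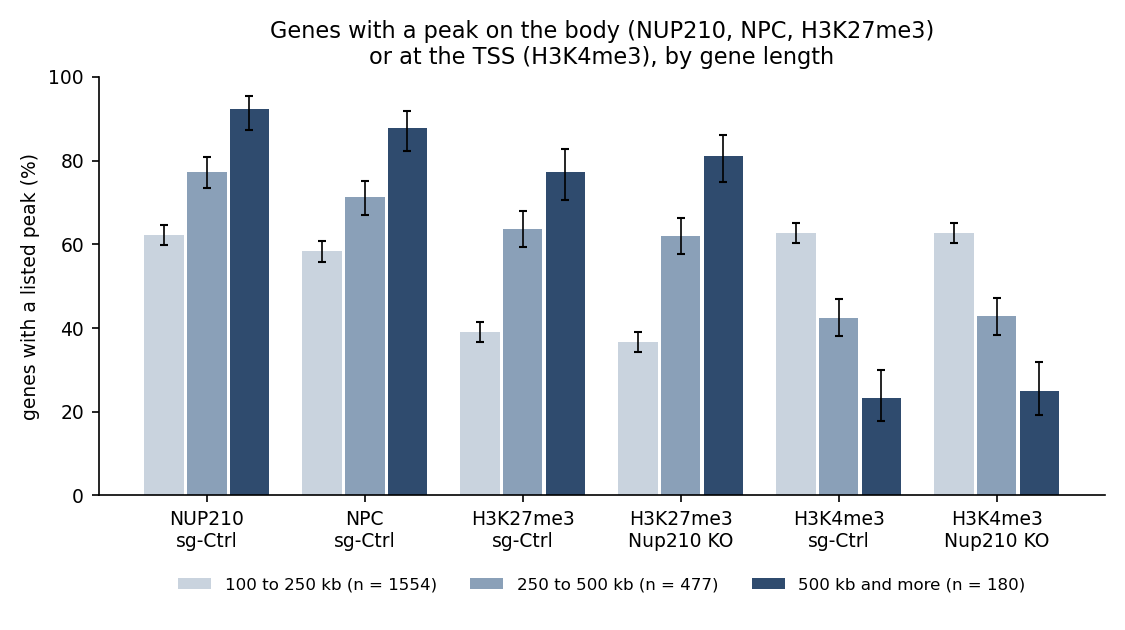
Share of genes (%) with a listed peak on the gene body (NUP210, NPC, H3K27me3) or at the TSS (H3K4me3) in 3 classes of gene length, with 95% Wilson intervals as bars, 1 library for each list. NUP210, NPC and H3K27me3 were most frequent on genes of 500 kb and more (92.2%, 87.8% and 77.2% in sg-Ctrl), where H3K4me3 was least frequent (23.3%).

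NUP210 was spread unevenly among these genes. Of the 180, 53 had NUP210 peaks over at least 50% of the body (19.4% of all listed genes did), 54 had them over less than 10%, and 14 had none, among them Rora, a nuclear receptor, Kalrn, a guanine nucleotide exchange factor, and Camta1, a calmodulin-binding transcription activator. The contactin Cntn5 was covered over 94.4% of its 1244 kb by 11 peaks, with 83.8% in H3K27me3. The immunoglobulin adhesion gene Cadm2 followed with 89.9%, Csmd3 with 89.1%, the protocadherin gene Pcdh9 with 86.9%, the latrophilin gene Lphn3 with 85.7% and the kainate receptor gene Grik2 with 85.5%. Csmd3 and Lphn3 are the only ones of these 6 with H3K4me3 at the TSS. The longest gene, the receptor phosphatase gene Ptprd, was covered over 30.3% by 50 separate peaks, and the dystrophin gene Dmd over 14.6% by 26, so that wide coverage did not follow from length alone.

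Coverage and enrichment were different things. The widest NUP210 peak on Cntn5 (chr9:10707001-10964000, 257 kb) held 11878 ChIP reads and 10443 IgG reads, a fold of 1.12, and in the NPC list a peak of the same position had a fold of 0.99 and an FDR of 1. The highest folds sat in narrow peaks elsewhere. A 1 kb peak in Ryr2, the cardiac ryanodine receptor gene, held 61 NUP210 reads (46.7 to 78.4 by an exact Poisson interval) and 13 IgG reads and had a fold of 4.64, although it was the only NUP210 peak of that gene. In all, 98 NUP210 peaks and 20 NPC peaks on very long genes reached 2-fold. On the 53 genes covered over at least 50%, the NUP210 peaks had a median width of 18 kb, a median fold of 1.19 and 23.1 IgG reads per kb, and on the 40 genes covered over less than 10% but not 0 these were 9 kb, 1.29 and 19.4 IgG reads per kb. The widely covered genes therefore had wider peaks with lower folds. With only peaks of an FDR of at most 0.05, a choice made with the results in view, 34 genes remained covered over at least 50% by NUP210 and 1 gene by NPC, and the medians became 19.0% and 9.56%. With a fold of at least 2 both medians were 0%.

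NPC peaks followed those of NUP210 from gene to gene. Over the 180 genes the 2 covered shares had a Spearman's correlation of 0.94 (Pearson's r 0.94), and 40 of the 43 genes covered over at least 50% by NPC (17.4% of all listed genes) were also among the 53 of NUP210, which is 93.0% of the one set and 75.5% of the other. Cntn5 led again with 93.5%, followed by Cadm2 with 88.2%, Vps13b, a lipid transfer protein gene, with 84.8%, Grik2 with 83.5%, Mgat4c, a glycosyltransferase gene, with 79.6% and Lphn3 with 79.4%. Some genes stood off this line. Kirrel3, an adhesion gene, was covered over 79.0% by NPC and 46.6% by NUP210, and Il1rapl1 over 20.3% and 49.1%. Of the 2589 NUP210 peaks, 1713 overlapped an NPC peak (66.2%, 64.3 to 68.0), below the 71.1% (70.3 to 72.0) on other genes. Both libraries came from sg-Ctrl cells and were called with the same window, and no list was made without the antibodies, so what is shared by the 2 antibodies was not separated from what is shared by the regions.

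NUP210 and H3K27me3 were only loosely related. Of the NUP210 peaks on very long genes, 1108 overlapped an H3K27me3 peak of sg-Ctrl (42.8%, 40.9 to 44.7) and 1132 one of KO (43.7%, 41.8 to 45.6), compared with 33.0% (32.1 to 33.9) and 33.6% (32.7 to 34.5) on other genes, whose H3K27me3 coverage was also lower. Gene by gene, Spearman's correlation between the covered shares was 0.23 in sg-Ctrl. Of the 53 genes covered over at least 50% by NUP210, 18 were also covered over at least 50% by H3K27me3 in sg-Ctrl and 10 had no H3K27me3 peak there. Lrp1b, which held 55 NUP210 peaks, had H3K27me3 over 8.46% of its body, with a fold of 1.18. In the other direction, Kalrn was covered over 57.4% by H3K27me3 and had no NUP210 peak, and Rora over 44.4%. The 98 NUP210 peaks of at least 2-fold overlapped H3K27me3 of sg-Ctrl less often (25.5%, 17.9 to 35.0).

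**Figure D2:**
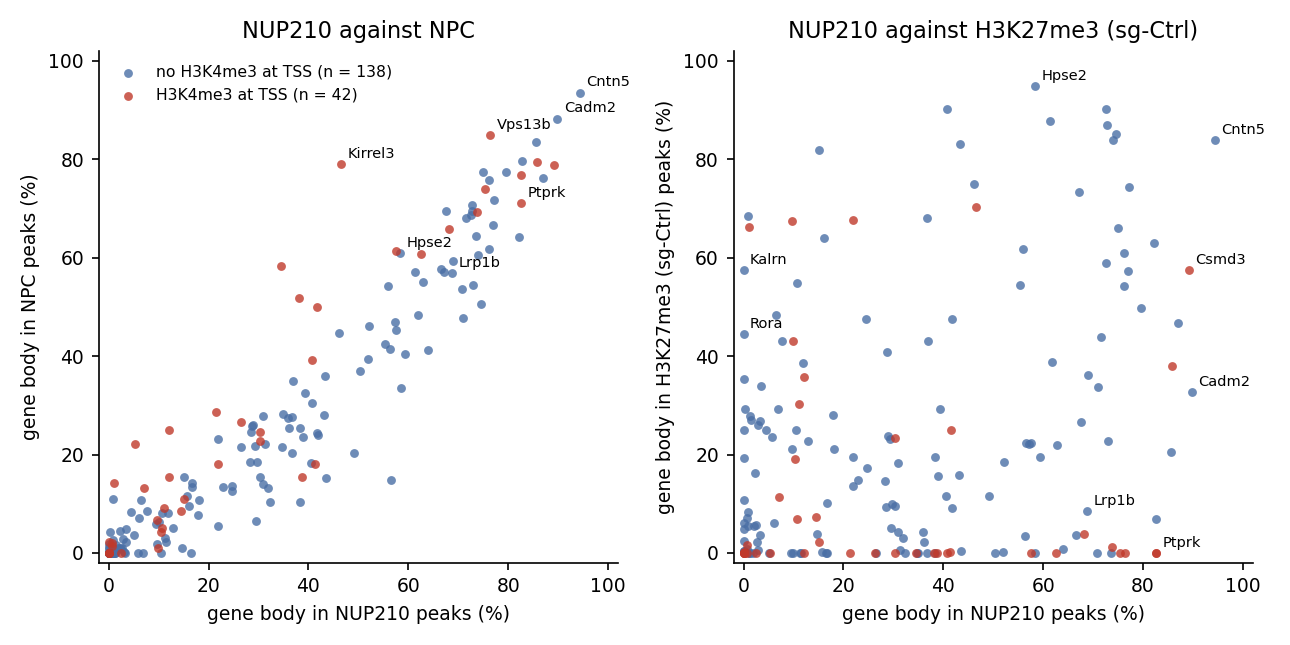
Share of each gene body (%) in NUP210 peaks against its share in NPC peaks (left) and in H3K27me3 peaks of sg-Ctrl (right), 1 point for each of the 180 very long genes, red for the 42 with an H3K4me3 peak at the TSS in sg-Ctrl and blue for the other 138. NPC followed NUP210 closely (Spearman's correlation 0.94), whereas H3K27me3 was spread over all levels of NUP210 (0.23) and lay near 0 for many genes with H3K4me3.

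Base composition moved with NUP210. The GC content of the gene body, read by gene name from NCBIM37 for 162 of the 180 genes, had a Spearman's correlation of -0.73 with NUP210 coverage and -0.59 with NPC coverage, but -0.13 with H3K27me3 in sg-Ctrl and -0.06 in KO. The median GC content was 37.6% in the genes covered over at least 50% by NUP210 and 43.1% in those covered over less than 10%. Very long genes as a whole had a median of 39.5% and genes of 250 to 500 kb 41.5%. The relation had exceptions at low GC content, 4 of them on the X chromosome. Pcdh11x had the lowest GC content (34.6%) with NUP210 over 10%, Dmd had 36.2% and 14.6%, Aff2 37.2% and 0%, Il1rapl2 37.4% and 2.51%, and Skint5 on chromosome 4 36.4% and 0.67%. The genes are points of the same libraries, whose recovery of AT-rich DNA was not measured, and the part of base composition in the coverage was not tested.

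**Figure D3:**
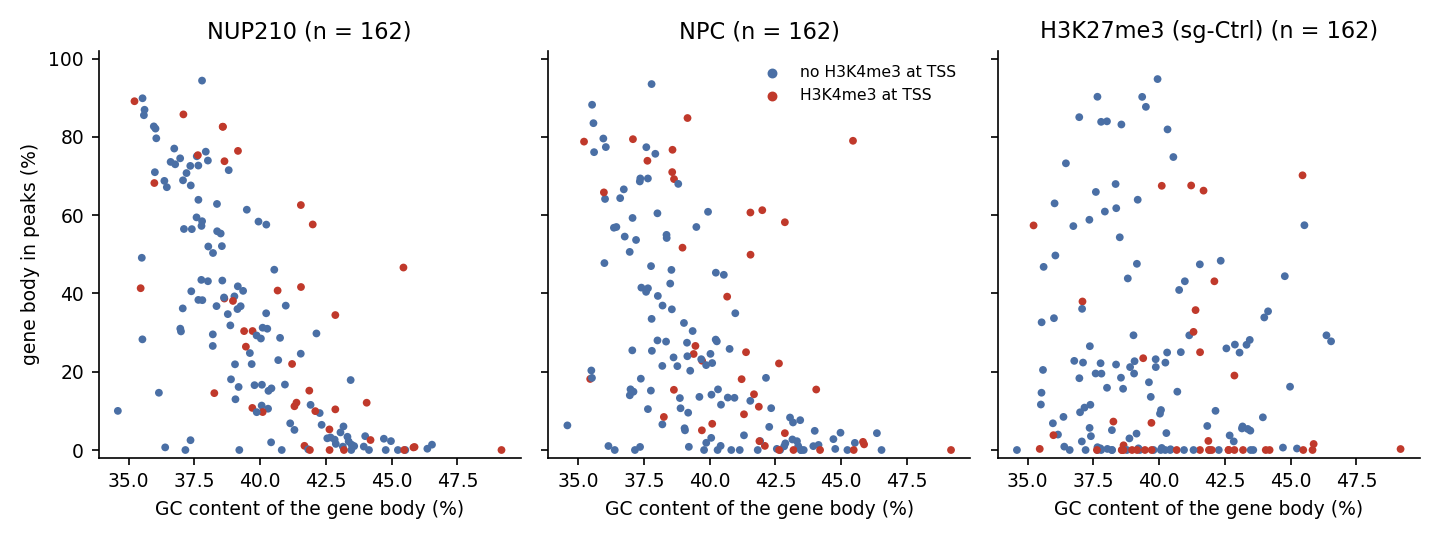
GC content of the gene body (%, NCBIM37) against the share of the body (%) in NUP210, NPC and H3K27me3 peaks of sg-Ctrl for 162 very long genes, red with and blue without H3K4me3 at the TSS. NUP210 and NPC coverage was lower at higher GC content (Spearman's correlation -0.73 and -0.59), and H3K27me3 coverage varied widely at every GC content (-0.13).

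Along the genes, NUP210 coverage was lower toward the end. Of the covered length, 21.4% fell in the first 20% of the gene, 22.1%, 21.1% and 19.2% in the next 3 parts of this size and 16.3% in the last 20%. NPC had 22.2% in the first 20% and 17.4% in the last. Genes of 250 to 500 kb had 16.9% of their NUP210 length in the last 20% and genes of 100 to 250 kb 16.5%, so this was shared with shorter genes. H3K27me3 in sg-Ctrl showed no such decline, with 22.2% in the first 20% and 20.7% in the last, and in KO 20.5% and 21.4%. On genes with H3K4me3 at the TSS, 30.2% of the H3K27me3 length of sg-Ctrl lay in the first 20% and 14.3% in the last, and in KO 25.1% and 19.6%, while on genes without H3K4me3 the first 20% held 21.0% and 19.8%. Only 5 of the genes with H3K4me3 were covered over at least 50% by H3K27me3. Over the TSS itself, NUP210 lay on 29 of the 180 genes (16.1%, 11.5 to 22.2), NPC on 24 (13.3%) and H3K27me3 on 28 in sg-Ctrl (15.6%) and 32 in KO (17.8%). For genes of 250 to 500 kb these shares were near, at 15.5%, 12.8%, 17.4% and 21.4%. H3K27me3 lay over the TSS of Anks1b, Kcnip4, Lama2 and Nkain2 in sg-Ctrl alone (2.22%) and of 8 genes in KO alone (4.44%), among them Arhgap15, Kalrn, Nckap5 and Grik2. At 250 to 500 kb these shares were 3.77% and 7.76%. H3K27me3 lay over the start of the longest transcript in 7 genes with H3K4me3, in both lists. In 4 of them (Csmd3, Kirrel3, Npas3 and Park2) the H3K4me3 peak was within 4 kb of that same start. It covered the start in Kirrel3 and Park2 but not in Csmd3 and Npas3. In Nfia, Etl4 and Schip1 it was within 4 kb of the start of a shorter transcript.

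H3K27me3 coverage was lower in genes with H3K4me3 than in those without it, but not clearly so in the longest genes. The 42 genes with a peak had a median H3K27me3 coverage of 0.12% (order-statistic interval 0 to 6.94) in sg-Ctrl, and the 138 without one 19.5% (11.6 to 23.2). The median NUP210 coverage was 21.7% (10.8 to 38.7) and 30.0% (22 to 36.8), and that of NPC 20.1% (11.1 to 39.2) and 18.3% (12.6 to 24.5). The intervals overlapped for both pore antibodies and not for H3K27me3, which describes the genes of these libraries and is no test. Of the genes with H3K4me3, 18 had no H3K27me3 peak in either list. They include Ptprk, a receptor phosphatase, Vps13b, Lrba and Nbea, a pair of related vesicle traffic genes, Exoc4, a subunit of the exocyst, Pard3 and Magi1, polarity and junction scaffolds, Foxp1, a transcription factor, and Rad51b, a recombination gene. Their NUP210 coverage ranged from 0% in Dock1, Mast4 and Cdkal1 to 82.6% in Ptprk and Rabgap1l, with a median of 32.4%, and NUP210 covered at least 50% of 6 of them. NUP210 coverage was therefore not limited to genes without H3K4me3 in these lists, but enrichment on these 6 was slight. The fold over IgG of all NUP210 peaks of the gene together was 1.03 in Lpp, 1.07 in Atrnl1 and 1.11 in Vps13b. It was 1.12 in Rabgap1l, 1.14 in Ptprk and 1.16 in Lrba. The median of this fold was 1.17 over genes with H3K4me3 and 1.23 over those without it. All 18 were shorter than 750 kb. Of the 12 genes with H3K4me3 of at least 750 kb, none was free of H3K27me3 in both lists, and their median H3K27me3 coverage in sg-Ctrl was 15.2% (0.25 to 43.1), against 19.5% (9.64 to 26.5) in the 71 genes of that length without H3K4me3. Their median NUP210 coverage was 16.2% (0.77 to 73.8), against 36.7% (24.8 to 43.1). At 750 kb and more the intervals thus overlapped for both measures. Genes with H3K4me3 were also shorter, with a median length of 562 kb against 757 kb, and the part of length in the difference over all 180 was not tested.

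Some genes carried both marks. Of the 42 with H3K4me3, 13 had H3K27me3 over at least 10% of the body in sg-Ctrl. Kirrel3 was covered over 70.2%, Npas3, a neuronal transcription factor gene, over 67.6%, Sox6, a transcription factor of cartilage and muscle, over 67.5%, Schip1 over 66.3% and Csmd3 over 57.4%. Their H3K4me3 was low in Sox6 (37 reads), Csmd3 (71 reads) and Npas3 (79 reads) and higher in Kirrel3 (426) and Schip1 (3896). The Schip1 peak lay within 4 kb of the start of a shorter transcript, as did those of Nfia, Etl4, Foxp1 and Arhgap6. For the other 37 genes the peak lay within 4 kb of the start of the longest one, and it did not always cover that start. Lists from a mixed culture cannot tell whether the 2 marks lay on the same copies of a gene.

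H3K27me3 covered more of the very long genes in KO than in sg-Ctrl. Peaks spanned 33.9 Mb of these genes in sg-Ctrl cells and 39.1 Mb in KO cells, a ratio of 1.15, compared with 1.13 for genes of 250 to 500 kb, 1.09 for genes of 100 to 250 kb and 1.11 for all listed genes. Of the 151 genes with a peak in either list, 104 had a greater and 42 a smaller covered length in KO, and 5 were equal. At 250 to 500 kb, 198 were greater and 119 smaller of 324. Over all listed genes with a peak, 2501 were greater, 1662 smaller and 1686 equal of 5849. The difference reached 2-fold upward in 38 (25.2%, 18.9 to 32.6; 23.3% of all genes with a peak) and downward in 14 (9.27%; 17.6% of all). By this count the upward share was near that of all genes and the downward share below it. Of the 38 and 14, 12 and 5 had H3K27me3 in 1 list alone, against 882 of 1362 and 736 of 1030 over all genes. The shares over all genes thus rest largely on genes with H3K27me3 in 1 list. Among genes with peaks in both lists, 26 of 134 very long genes were at least 2-fold greater and 9 smaller. Over all genes these were 480 and 294 of 4231. When the 6 genes left out were added, the counts were 41 and 17 of 157 and the ratio 1.15. When peaks under 2-fold over IgG were left out the split became 35 upward and 30 downward of 132 genes, although 76 of these still had a greater and 55 a smaller covered length in KO.

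The greatest gain was in Ctnnd2, the gene of a neuronal catenin, from 369 kb in sg-Ctrl to 656 kb of its 857 kb in KO. Plcb1, a phospholipase C gene, had 64 and 328 kb. Dgkb, a diacylglycerol kinase gene, had 171 and 424 kb. Both enzymes act in lipid signalling. Sgcz, a sarcoglycan gene, had 566 and 814 kb, Mctp1 137 and 351 kb, and 1700112E06Rik 269 and 480 kb. Counting only peaks that reached 2-fold, the gain was 349 kb in Ctnnd2 and 259 kb in Mctp1, but 158 kb in Plcb1 and 88.4 kb in Dgkb. For Ctnnd2, Dgkb and Mctp1 the pooled fold over IgG in the peaks was also higher in KO (1.86 and 2.49 for Ctnnd2), while for Plcb1 it was 2.39 in sg-Ctrl and 2.13 in KO. On Sgcz the folds were low, at 1.29 and 1.31, and with peaks of at least 2-fold its gain was 8 kb.

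The greatest loss was in Magi2, a scaffold of synapses and tight junctions, with 703 kb of 1478 kb in sg-Ctrl and 397 kb in KO. Cadm2 had 315 and 14 kb, but its peaks were hardly above IgG, with folds of 1.12 and 0.74, and none of them reached 2-fold in either list. Erc2, a protein of the presynaptic active zone, had 369 and 116 kb, Lingo2 228 and 9 kb, Ptprd 219 and 53.9 kb, and Celf2, an RNA-binding splicing regulator, 191 and 27.2 kb. The order of the losses depended on weak peaks. With those of at least 2-fold alone, KO minus sg-Ctrl was -263 kb in Erc2, the greatest loss of these 6, and -149 kb in Magi2, -104 kb in Ptprd, -97.2 kb in Celf2 and -84.4 kb in Lingo2. Erc2 and Celf2 had clear enrichment in sg-Ctrl (folds of 2.83 and 2.29) and less in KO (2.13 and 1.12). Il1rapl1 and Nrg3 went from 159 and 39 kb to no peak. Il1rapl2, the relative of Il1rapl1 also on the X chromosome, went the other way from 72 to 246 kb. Gains of at least 100 kb numbered 34 and losses 11 of 151 genes with a peak, against 33 and 13 of 324 at 250 to 500 kb. Over all listed genes, very long genes included, they numbered 78 and 31 of 5849. A gene shorter than 100 kb cannot reach this limit and a longer one has more room to, so these counts depend on length by construction.

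**Figure D4:**
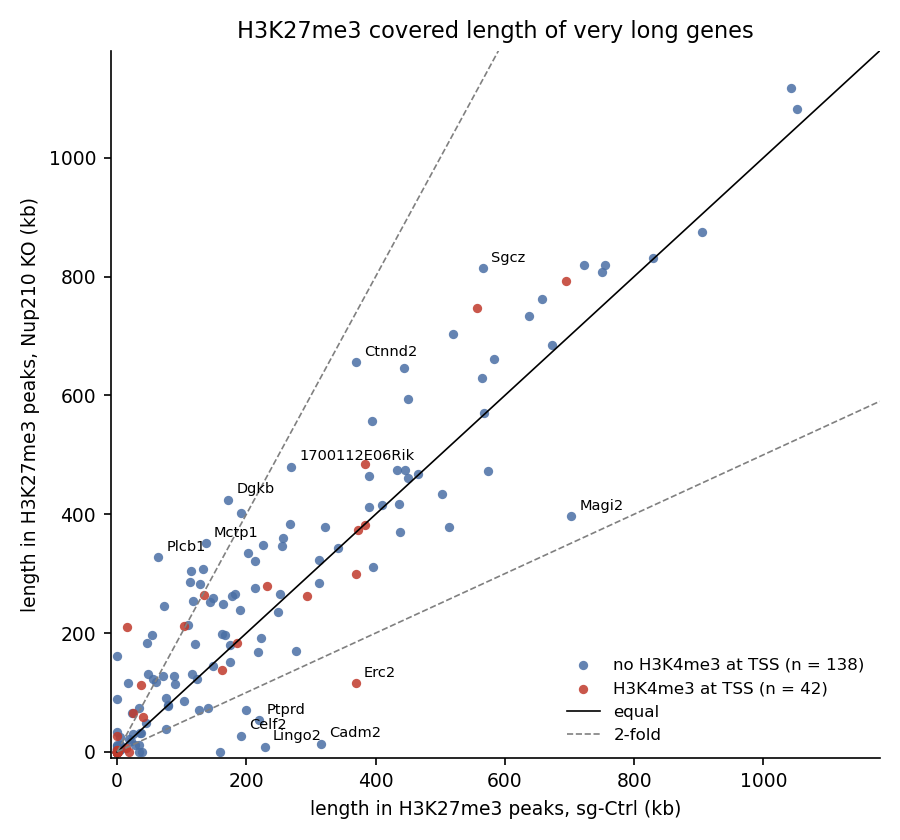
Length (kb) of each of the 180 very long genes in H3K27me3 peaks of sg-Ctrl (horizontal) and Nup210 KO (vertical), red with and blue without H3K4me3 at the TSS in sg-Ctrl, with lines for equal and 2-fold lengths and names for the 6 greatest gains and losses in kb. Of the 151 genes with a peak, 104 lie above the line of equality and 42 below it, with Ctnnd2 at 369 and 656 kb and Magi2 at 703 and 397 kb.

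NUP210 coverage did not order these differences. Over the 151 genes Spearman's correlation between NUP210 coverage and the change in kb was -0.06. Among the 44 genes covered over at least 50% by NUP210, 28 were greater and 15 smaller in KO, with a median difference of 9.50 kb. Among the 46 covered over less than 10%, 34 were greater and 10 smaller, with a median of 28 kb. Directions differed between chromosomes. On chromosome 8, 11 of 12 very long genes had a greater length in KO and 0 a smaller one, and on chromosome 12, 6 of 7 and 0. On chromosome 4, 2 of 8 were greater and 6 smaller, and on chromosome 5, 1 of 10 and 6. Chromosome 10 had 6 greater and 3 smaller, chromosome 18 had 2 and 0 and chromosome 19 had 5 and 0. The median log2 ratio of all H3K27me3 regions, on genes of any length, was 0.47 on chromosome 8, 0.25 on chromosome 12, -0.62 on chromosome 4, -0.32 on chromosome 5, -0.27 on chromosome 10, -0.54 on chromosome 18 and -0.07 on chromosome 19. Direction thus went with that median on chromosomes 8, 12, 4 and 5 and against it on 10, 18 and 19. It also went against it on chromosomes 3, 6, 11 and 14, which had 6, 6, 3 and 8 greater and 2, 4, 1 and 5 smaller. Their medians were -0.09, -0.15, -0.06 and -0.17. Of the 9 chromosomes with a median below 0, only 4 and 5 had more smaller than greater lengths. On those above 0 more were greater, except on chromosome 9, with 3 and 3. Of all genes with a peak, 66.8% were greater and 9.27% smaller in KO on chromosome 8, and 56.7% and 22.5% on chromosome 12. These shares were 13.7% and 61.7% on chromosome 4 and 22.1% and 51.7% on chromosome 5. They were 31.2% and 38.6% on chromosome 10, 19.8% and 69.2% on 18, and 30.3% and 20.7% on 19. On the 11 chromosomes with a median above 0, 65 very long genes were greater and 15 smaller in KO, and on the 9 below 0 these counts were 39 and 27. On the 11, 31 very long genes were at least 2-fold greater and 4 at least 2-fold smaller, and on the 9 there were 7 and 10. Magi2 is on chromosome 5, and Lingo2 and Ptprd are on chromosome 4. The lists hold no measure of the copy number of chromosomes in either cell population, and the part of the chromosome in these counts was not tested. With chromosomes 4, 5, 8 and 18 taken out, likewise chosen with the results in view, 34 genes were at least 2-fold greater and 8 smaller.

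The greater length did not come with a higher read density. Overlapping peaks of both lists were joined into 1842 regions on very long genes, of which 1123 drew on both lists, 415 on the KO list only and 304 on the sg-Ctrl list only. Density was the scaled reads in the peaks of each list per kb of the joined region, so reads between islands were not counted. For the 1123 shared regions the median log2 ratio of this density was -0.004 (order-statistic interval -0.05 to 0.03), and 559 (49.8%, 46.9 to 52.7) were higher in KO. At least 2-fold higher were 119 (10.6%, where regions on all genes had 12.1%) and at least 2-fold lower 81 (7.21%, where regions on all genes had 9.56%). Relative to the median of each chromosome, likewise a later choice, the median was -0.06. KO peaks were longer in 625 of these 1123 regions and shorter in 310, and on other genes in 2829 and 1527 of 5124. In 188 regions several sg-Ctrl islands faced 1 KO island, and in 60 the reverse was seen. On other genes these numbers were 732 and 226 of 5124, so neither pattern was particular to very long genes.

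The widest of these regions lay in Nckap5 (chr1:125956001-126380000), where 13 sg-Ctrl islands of 322 kb in all faced 1 KO island of 423 kb. Its reads numbered 9770 and 46431, and the log2 ratio after scaling was 0.59. In Kalrn (chr16:34180001-34581000) 8 islands of 244 kb faced 1 of 387 kb, with a log2 ratio of 0.99. The highest ratio among the most often joined regions was in Arhgap15, a Rac GTPase-activating protein gene, where 8 islands of 75 kb faced 1 of 271 kb (chr2:43611001-43882000, log2 ratio 2.02) and 6 faced 1 next to it (1.33). In Hdac9, a histone deacetylase gene, 5 islands were joined at a log2 ratio of 0.05, and the 308 kb domain of Kcnd2, a potassium channel gene, was 1 island of the same limits in both lists with a log2 ratio of -0.45. These ratios leave out sg-Ctrl reads between the islands, which by itself raises the KO to sg-Ctrl ratio where islands were joined. Taken alone they therefore do not give the density inside the islands. Over all H3K27me3 peaks of a gene, scaled reads per kb of peak were 33.8 in sg-Ctrl and 35.6 in KO for Nckap5. They were 32.0 and 40.1 for Kalrn and 31.9 and 42.9 for Arhgap15. For these genes the rise inside peaks was thus smaller than the ratios of their joined regions. Hdac9 had 45.0 and 43.2 and Kcnd2 53.3 and 39.9.

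The most fully marked gene was Hpse2, a heparanase-like gene, with H3K27me3 over 94.8% of its 600 kb in sg-Ctrl and 95.1% in KO. Lama2, a laminin gene, was covered over 90.2% and 74.3%, Pard3b over 90.2% and 87.2%, the cGMP-dependent kinase gene Prkg1 over 87.7% and 90.2%, Cpq over 87.0% and 92.9% and Kcnd2 over 85.0% and 81.3%. These stayed widely covered in both lists. H3K27me3 coverage in the 2 lists had a Spearman's correlation of 0.92 over the 180 genes.

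At the TSS, H3K4me3 was lower in KO in most of the 42 genes with a peak in both lists. The median log2 ratio of scaled reads per kb was -0.47 (-0.54 to -0.19), against -0.50 (-0.51 to -0.49) over all 12197 genes with both peaks, so this median was close to that of all genes. It depended on the length limit, since at 750 kb and more it was -0.14 with 0 genes at a ratio of 0.5 or less. The ratio was below 0 in 36 of 42. Its exact counting interval lay below 0 in 31, above 0 in 4 and spanned 0 in 7. Only Nfia and Cdk14 had a ratio of 0.5 or less in reads per kb (9.66% of all genes), and none reached 2 (0.525% of all). Each list's reads were divided by the width of its own peak. A peak wider in KO thus had a lower ratio than its scaled reads alone would give, and a narrower one a higher ratio. No ratio over a common interval was computed for H3K4me3. When the libraries were scaled to the reads in shared peaks instead, the median was -0.05, none was at 0.5 or less and 3 reached 2, so that the general shift rests on the scaling by library size.

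Nfia, a nuclear factor I transcription factor gene, had 13209 reads over 17 kb in sg-Ctrl and 6715 over 14.6 kb in KO, which is 732 and 341 scaled reads per kb and a log2 ratio of -1.10 (-1.14 to -1.06). Cdk14, a cyclin-dependent kinase gene whose CG-rich start is printed above, had 889 and 423 scaled reads per kb (-1.07, -1.15 to -0.999). Both had a large peak in sg-Ctrl that was still present in KO. They were followed by Etl4 (-0.85), Camta1 (-0.77), the cadherin gene Cdh13 (-0.75) and the catenin gene Ctnna3 (-0.75). Cdh13 rested on 165 and 112 reads, with an interval of -1.11 to -0.40. Nfia and Camta1 are on chromosome 4 and Cdk14 on chromosome 5, where the medians of all genes were both -0.72, while the median was -0.36 on chromosome 8. Relative to these medians Nfia was at -0.38 and Cdk14 at -0.35, and the 42 genes had a median of -0.01 (-0.05 to 0.29), with 7 above 0.5 and 0 below -0.5.

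At the other end, Cadps2, a gene of vesicle priming, had 34 reads in sg-Ctrl and 594 in KO, or 80.1 and 157 scaled reads per kb (log2 ratio 0.97, 0.48 to 1.52), and its peak was 0.40 kb wide in sg-Ctrl and 2.80 kb in KO. Kirrel3 had 426 and 2122 reads in peaks of 2.20 and 4.60 kb, or 183 and 342 scaled reads per kb (0.91, 0.76 to 1.06). Erc2 had 92 and 245 reads in peaks of 1 and 1.40 kb, or 86.7 and 130 per kb (0.58, 0.23 to 0.94). All 3 were below the median of the 42 genes in sg-Ctrl, 466 scaled reads per kb. Csmd3 (0.41, -0.02 to 0.86), the Rac regulator gene Elmo1 (0.19) and the ubiquitin ligase gene Park2 (0.02, -0.21 to 0.25) came next. Erc2 had one of the highest H3K4me3 ratios, at a low level of the mark, and one of the greatest losses of H3K27me3 length, whereas Kirrel3 kept H3K27me3 over 70.2% and 69.6% of its body.

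**Figure D5:**
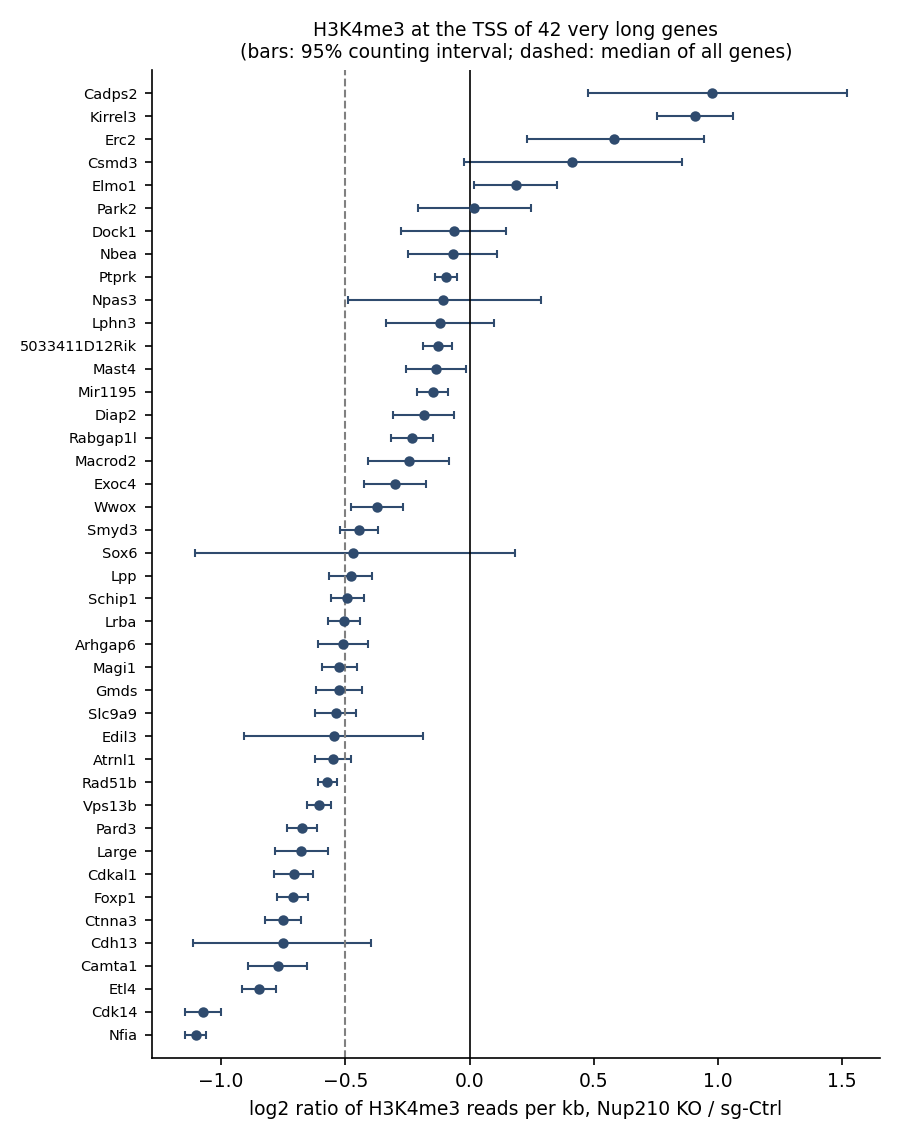
Log2 ratio of scaled H3K4me3 reads per kb at the TSS, Nup210 KO to sg-Ctrl, for the 42 very long genes with a peak in both lists, ordered by ratio, with exact 95% counting intervals as bars, a solid line at 0 and a dashed line at the median of all genes (-0.50). Nfia (-1.10) and Cdk14 (-1.07) are lowest and Cadps2 (0.97) and Kirrel3 (0.91) highest, and 36 of the 42 points lie below 0.

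By function, 98 of the 180 genes fell into at least 1 of 10 lists of gene families, in which a gene may appear more than once. The 17 genes of synaptic adhesion had a median NUP210 coverage of 36.7% (29.4% over all 180) and a median H3K27me3 coverage of 5.65% in sg-Ctrl and 9.55% in KO (14.8% and 18.2% over all). Only Lphn3 had H3K4me3 in sg-Ctrl. Of the 15 with H3K27me3 in either list, 10 had a greater length in KO and 5 a smaller one, 6 by at least 2-fold upward and 1 downward, where over all genes with a peak the shares were 23.3% and 17.6%. With so few genes in each family, these and the following counts are descriptions. Cntnap2 had 437 and 369 kb, Nrxn3, a presynaptic neurexin, 0 and 88.9 kb, Il1rapl1 159 and 0 kb and Il1rapl2 72 and 246 kb. Related genes thus went in opposite directions.

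Among the 14 ion channel and neurotransmitter receptor genes, none had H3K4me3 in sg-Ctrl and the median H3K27me3 coverage was 24.6% and 28.1%. Of 13 with H3K27me3, 9 were greater and 3 smaller in KO, 2 and 1 of these by at least 2-fold (23.3% upward and 17.6% downward over all genes with a peak). Grm8, a glutamate receptor gene, had 584 and 662 kb, Kcnip4, a channel-interacting protein gene, 199 and 71 kb, and Grm7 no H3K27me3 in either list. All 14 had a NUP210 peak, with a median coverage of 31.7%. The 5 axon guidance genes had a median NUP210 coverage of 36.2% and little H3K27me3 (2.19% and 2.73%). Dcc, a netrin receptor gene, had 24 and 30 kb, Epha6 253 and 267 kb, Slit3 163 and 199 kb, and Unc5d 3 and 10 kb. All 4 with H3K27me3 were greater in KO, by 6 to 35.5 kb.

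The 7 cadherin, protocadherin and catenin genes included Ctnna3 and Cdh13, which had H3K4me3. Of 6 with H3K27me3, 5 were greater and 1 smaller in KO. Cdh13 had 16 and 210 kb, Ctnna2 46 and 184 kb, Ctnna3 369 and 299 kb, and Pcdh9 410 and 416 kb. The 6 immunoglobulin superfamily genes split, with 2 greater and 3 smaller in KO. Ntm had 36 and 31 kb, Cadm2 315 and 14 kb, Lsamp 113 and 286 kb, and Negr1 no H3K27me3. The 11 receptor kinase, phosphatase and growth factor genes had 6 smaller and 4 greater lengths among 10. Ptprd was smaller, Ptprt, also a receptor phosphatase, had 0 and 161 kb, Nrg3, a neuregulin, 39 and 0 kb, and its receptor gene Erbb4 673 and 684 kb with NUP210 over 82.1%.

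The 12 genes listed under matrix, proteoglycans and the dystrophin complex had the highest family median of NUP210 coverage, 46.8%, and all had H3K27me3 in both lists, with 9 greater and 3 smaller in KO. The list also held Lrp1b, Csmd1 and Csmd3, which encode membrane proteins outside these groups. Their NUP210 coverage was 68.8%, 31.0% and 89.1%. Dmd had 89 and 114 kb, Lrp1b 174 and 151 kb, Csmd1 71 and 127 kb, and Gpc5, a glypican gene, 4 and 12 kb. The 10 phosphodiesterase, kinase and scaffold genes had H3K4me3 in 4, which were Exoc4, Magi1, Lpp and Pard3, none of them with H3K27me3. The other 6 had H3K27me3, with 4 greater and 2 smaller in KO, and included Pde4d, a cAMP phosphodiesterase gene, with 133 and 307 kb. The 10 transcription factor and RNA-binding protein genes stood at the low end for NUP210, with a median of 8.71%, and had a median H3K27me3 coverage of 36.6% and 37.7%. Rbfox1, a splicing regulator, had 657 and 762 kb with NUP210 over 7.72%, Rbms3 23.3 and 65.3 kb, Celf2 191 and 27.2 kb, and Auts2 no H3K27me3. The families were not tested against each other.

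Of 15 genes known from human common fragile sites, 6 had H3K4me3, and the family had a median NUP210 coverage of 38.1% and H3K27me3 coverage of 8.46% in sg-Ctrl and 7.34% in KO. Fhit had no H3K27me3 in either list, NUP210 over 11.4% of its 1612 kb and no H3K4me3. Wwox, with H3K4me3, had 0 and 27 kb of H3K27me3 and NUP210 over 0.66%. Macrod2, with H3K4me3, had NUP210 over 73.8% of its 1995 kb and 24 and 65 kb of H3K27me3. These 3 show how far genes of this family lay apart in NUP210.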

How the data were processed

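Chromatin was sheared enzymatically and immunoprecipitated in 4T1 cells. Of 13 samples, the 6 ChIP-seq lists were used, with 1 library per condition. The 3 IgG samples entered only through their reads in the lists, and RNA-seq (4 samples) was not used here. Per the study's methods, the authors called peaks with SICER at default parameters (a 200 bp window for H3K4me3, 1000 bp otherwise) and annotated them. In the deposited lists each peak is paired with a transcript and carries raw read counts of ChIP and IgG. They also hold the authors' p-value with its FDR, and the fold over IgG scaled by library size. The submitters' processing notes name mm9, mm10, NCBIM37, Trimmomatic, STAR, Picard and Bowtie2, with no role for each. A gene start or end lay within 50 bp of GRCm38.p6 for 125 of 180 genes (69.4%) and of NCBIM37 for 6 of 169 (3.55%).

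A gene was taken at its longest listed transcript, duplicate peaks were counted once, and overlaps needed 1 bp. Relative library size was recovered from counts and folds and was 3.16 (H3K27me3) and 1.27 (H3K4me3) for KO over sg-Ctrl. Covered length is the part of the body in peaks, and log2 ratios compare scaled reads per kb. The length used was the joined region for H3K27me3 and each list's own peak for H3K4me3. No test of KO against sg-Ctrl was possible. Intervals for shares are Wilson, for medians order statistics and for reads exact, all at 95%, and reads were not checked for molecular duplicates. The scripts were checked on simulated lists. Members and gene lists were chosen with earlier results of these data known. Named were the 6 greatest gains and losses of H3K27me3 length, the 6 lowest and highest H3K4me3 ratios where the higher library had 100 reads or more, the 6 genes most covered by NUP210 and by NPC, the 5 longest, the 3 on each side of the limit, and up to 4 genes of each list, longest first. Other genes were named after their values were seen. A gene that the rule names is not reported here. Software was Python (3.11.15) with matplotlib (3.10.9), scipy (1.17.1), pandas (2.3.3) and numpy (2.4.6). Alternatives covered the length limit, FDR and fold limits, overlap, scaling, chromosomes and the short RNA names.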

Additional observations from a re-analysis of the deposited data

How the results depend on the processing

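No paired analysis was possible because each ChIP-seq condition had 1 library. Of 111 alternative values of the summary results, 81 stayed within the interval or 1.5 times of the value given, and 30 moved beyond it. The median log2 ratio of H3K27me3 density, whose interval spans 0, was -0.0038 as given, 0.0044 with the 6 genes added and 0.017 at an FDR of at most 0.01, so it has no stable sign. With a length limit of 750 kb there were 83 genes with 1625 NUP210, 1235 NPC and 1028 KO H3K27me3 peaks. NUP210 peaks then overlapped NPC in 64.2% and H3K27me3 of sg-Ctrl in 46.7%, 19 genes were at least 2-fold greater in KO, the H3K4me3 median was -0.14 with 0 genes at 0.5 or less, and genes with H3K4me3 had a median H3K27me3 coverage of 15.2%. At an FDR of at most 0.01 the median coverage was 16.7% for NUP210 and 8.05% for NPC, and the overlaps were 29.7% with NPC and 38.1% and 38.4% with H3K27me3 of sg-Ctrl and KO. At an FDR of at most 0.05, added later, the medians were 19.0% and 9.56%. With folds of at least 2 both were 0%, and 30 genes were at least 2-fold smaller in KO. Scaling by reads in shared peaks gave a median log2 ratio of -0.13 for H3K27me3 and -0.051 for H3K4me3, and turned the H3K4me3 counts from 2 genes at 0.5 or less and 0 at 2 or more to 0 and 3. When 50% of a NUP210 peak had to overlap, the shares were 54.8% (NPC), 34.9% and 37.5% (H3K27me3 of sg-Ctrl and KO). Of the alternatives added later, leaving out chromosomes 4, 5, 8 and 18 gave 8 genes at least 2-fold smaller, subtracting chromosome medians gave an H3K27me3 median of -0.062, and dividing by the peak length of each list separately gave -0.14. Apart from settings that remove peaks or change the scaling by construction, the cause was not tested.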
